A study of Oryza sativa with 12 samples.

Results

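Of the 36019 rice loci that hold 1 annotated gene, 113 were higher in every group of 12-day plants than in 5-day wild-type plants. They were chosen from the authors' deposited expression values. A member had at least 5 FPKM (sequenced fragments per kilobase of transcript, relative to the number mapped) in 12-day wild type and in 12-day plants of both knockout lines, and each of these 3 values was at least 3 times that of 5-day wild type. The highest 12-day value was at most 4 times the lowest. The table holds 37672 loci in all, among them loci with several annotated genes or none, which were not eligible.

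The study sequenced RNA from the whole aerial parts of Nipponbare rice, with 3 biological replicates in each of 4 groups. Wild type was sampled at 5 and at 12 days, and 2 lines with OsC3'H1 knocked out, a and b, at 12 days in the T3 generation. OsC3'H1 encodes the hydroxylase that acts on p-coumaroyl esters in the lignin pathway. All plants grew on agar with half-strength Murashige and Skoog medium, and on day 7 the wild-type controls were moved to a container of hypotonic solution made with tap water, while no such move is named for the knockout lines. The 5-day plants predate that day. In wild type, age therefore goes together with the move, and in the lines age goes together with genotype, so these cannot be told apart. Sample titles and source names give the letters of the lines opposite ways. The letters of the titles are used, so that a value given for 1 line is that of the other should the source names be correct.

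Between these ages a rice seedling passes from living on its seed reserve to feeding itself, while new leaves emerge from the shoot apex. Plants hold water channels of the plasma membrane and of the vacuole, carriers of sodium and potassium, and calcium-linked protein kinases that tune such carriers. These are known to be regulated during growth and with changes in water and salt supply. Several of the members that could be named belong to these families.

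The deposited table gives 1 FPKM per group over its 3 replicates and no value per replicate, so no standard deviation between replicates can be given and sequencing depth is unknown. The error after a log2 ratio is its standard error as implied by the Cuffdiff statistic, obtained by dividing the ratio by that statistic. A locus is called where the deposited q is under 0.05 and the test was done. OsC3'H1 itself (Os05g0494000) stood at 65.7 FPKM in 5-day and 53.1 FPKM in 12-day wild type, and at 10.7 FPKM in line a and 12.9 FPKM in line b, with a Cuffdiff q of 0.000253 for each line against 12-day wild type. The 4 leaf photosynthesis markers summed to 28762 and 37464 FPKM in 5-day and 12-day wild type and to 3225 and 2801 FPKM in lines a and b, none at 0. RBCS and RCA carry most of that sum. In wild type CAB2R went the other way, from 839.5 FPKM at 5 days to 273 FPKM at 12 days (Cuffdiff q 0.000253), and RBCS was not called (Cuffdiff q 0.282). Of the 2 root markers LSI2 was at 0 in every group, and of the 2 seed storage markers GLUB1 was. The other root marker, LSI1, had 10.7 FPKM in 5-day wild type and 2.31, 6.56 and 6.99 FPKM in 12-day wild type, line a and line b. It was called lower than at 5 days in each (Cuffdiff q 0.000253, 0.0187 and 0.0335). The other seed marker lay between 2.41 and 3.22 FPKM.

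The members' median was 2.68 FPKM at 5 days, 16.7 FPKM in wild type at 12 days, and 22.0 and 21.1 FPKM in lines a and b. Over all single-gene loci at 5 FPKM or more in each 12-day group, 13443 in number, the medians were 21.6, 22.1, 22.1 and 21.9 FPKM in the same order of groups. The members' 12-day medians thus lay near those of expressed loci in general, and their 5-day median lay far lower, as the rule requires. Single members ranged from 0 to 64.5 FPKM in 5-day wild type, from 5.08 to 1035 in 12-day wild type, from 5.25 to 379.9 in line a and from 5.00 to 457.1 in line b. At 5 days 2 members were listed at 0, 11 lay under 1 FPKM and 32 were already at 5 FPKM or more. In bulk tissue, fewer cells of a type and less RNA per cell cannot be told apart.

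**Figure D1:**
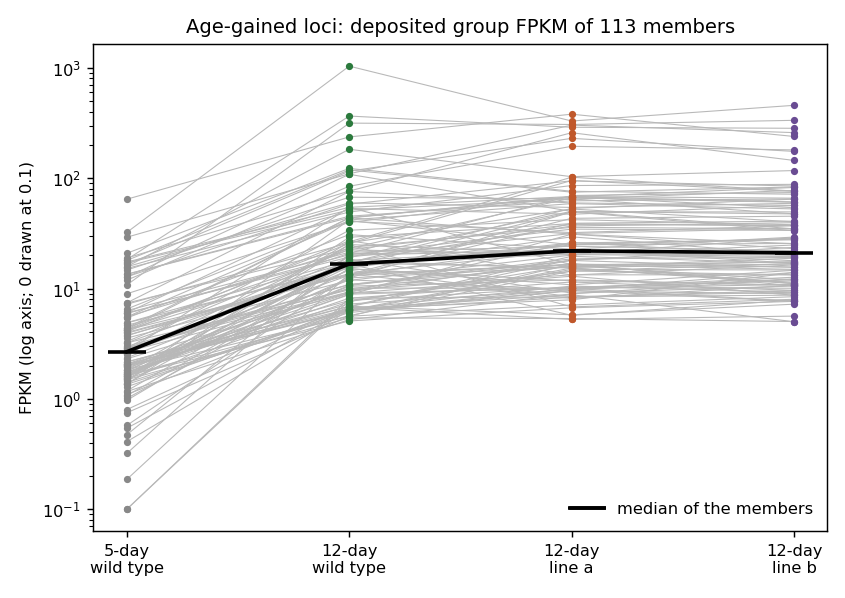
Deposited FPKM of the 113 members in the 4 groups on a log axis, with 1 grey line per locus, 1 point per group value and the median in black. The median lies at 2.68 FPKM at 5 days and between 16.7 and 22.0 FPKM in the 12-day groups.

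Most loci that met the limits against 5 days did so in part of the 12-day groups. By the same limits of 5 FPKM and 3-fold, 405 single-gene loci stood above 5 days in wild type at 12 days, and 1452 and 1507 did in lines a and b. These comparisons share the 5-day control. There were 151 loci in all 3 sets, 1122 in both lines without 12-day wild type, 234 in 12-day wild type alone, 170 in line a alone and 223 in line b alone. Only 9 loci were shared by 12-day wild type and line a alone, and 11 by 12-day wild type and line b alone. Of the 151, 38 were left out because their 12-day values lay over 4-fold apart, 35 with 12-day wild type lowest and 3 with it highest. The opposite pattern, at least 5 FPKM at 5 days and at least 3-fold over each 12-day group, was met by 60 loci. With the 12-day values also above 0 and within 4-fold of each other, as the members' were, it was met by 38.

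**Figure D2:**
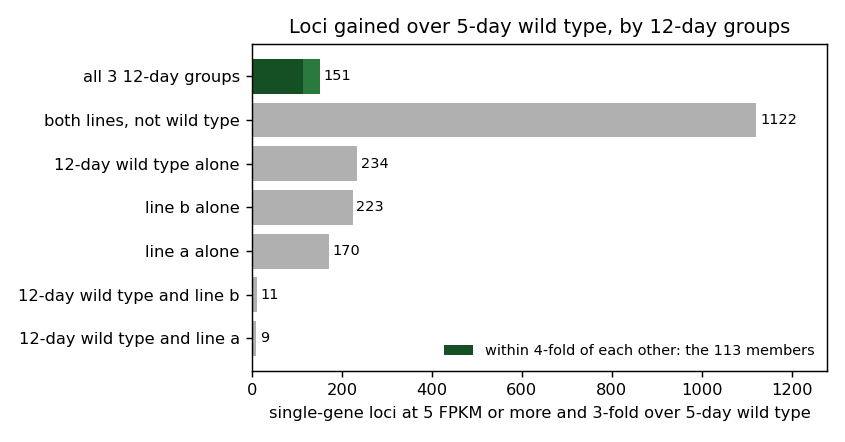
Number of single-gene loci at 5 FPKM or more and at least 3-fold over 5-day wild type, split by the 12-day groups in which this held. The dark bar marks the 113 members among the 151 loci gained in all 3 groups, beside 1122 loci gained in both lines and not in 12-day wild type.

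The lowest of a member's 12-day values was a median 4.44 times its 5-day value, over the 111 members above 0 at 5 days. It was at least 10-fold for 22 members and at least 5-fold for 47 (the 2 at 0 included in both), and 48 lay under 4-fold. Just inside the limit of 3-fold were Os06g0635200 at 3.00-fold, Os03g0103300 at 3.02-fold and Os03g0140100 at 3.02-fold. Just outside it were Os05g0119200 at 2.98-fold, Os04g0338100 at 2.98-fold and Os03g0401100 at 2.96-fold.

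The authors' deposited table calls 89 of the 113 members higher in 12-day than in 5-day wild type, where 14.8% of all loci tested were called higher. It calls 93 higher in line a and 94 in line b than in 5-day wild type, where 24.7% and 25.6% of all loci tested were called higher. The rule used these contrasts, so the counts describe the members and nothing is read from them. All 113 members were tested in every comparison. They were called in all 3 age comparisons in 89 cases, in 2 of them in 4, in 1 in 1 (Os01g0678900) and in none in 19.

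Both water channels among the members lay far above their 5-day values. TIP1;2 (Os01g0975900, IRGSP-1.0 chromosome 1, 43115746 to 43117221), an aquaporin of the vacuolar membrane, had 0.321 FPKM at 5 days, 20.7 in wild type at 12 days, and 21.7 and 21.6 in lines a and b. Its lowest 12-day value was 64.5 times the 5-day value, the highest such ratio among the 111 members above 0 at 5 days, and its 12-day values lay within 1.05-fold of each other, the smallest spread among all 113. The log2 ratio of 12-day over 5-day wild type was 6.01 ± 2.39 (implied standard error) with a Cuffdiff q of 0.332, so TIP1;2 was not called. Its 5-day value was among the 11 under 1 FPKM.

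PIP1;3 (Os02g0823100, chromosome 2, 35274977 to 35368901), an aquaporin of the plasma membrane, had 4.27 FPKM at 5 days, 43.6 in wild type at 12 days, and 67.7 and 61.0 in lines a and b. Its log2 ratio of 12-day over 5-day wild type was 3.35 ± 2.32 (implied standard error) with a Cuffdiff q of 0.268. It was not called either. Its merged locus spans 93925 bases, and whether the value holds reads from outside the aquaporin gene was not tested. Of 19 aquaporin loci placed by symbol, 11 were tested between 12-day and 5-day wild type, 2 were called higher (PIP2;2 and PIP2;7) and 4 lower, where 14.8% of all loci tested were called higher and 13.5% lower. In each line 12 were tested against 5-day wild type, 1 was called higher (TIP4;1) and 5 lower, where 24.7% and 25.6% of all loci tested were called higher in lines a and b and 26.2% and 26.6% lower. TIP1;1, the abundant relative of TIP1;2, had 1088 FPKM at 5 days and 719, 715 and 793 FPKM in 12-day wild type, line a and line b. It thus stood lower in all 3 groups of 12-day plants while TIP1;2 stood higher, with a Cuffdiff q of 0.000253, 0.000253 and 0.00247. The start of the TIP1;1 locus lay 71.6 kb from where its 3 nearest genes place that symbol. Whether its value holds reads from outside that gene was not tested.

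Among ion carriers the members differed in their order at 12 days. HKT1;1 (Os04g0607500, chromosome 4, 30723897 to 30727137), a sodium transporter, had 1.62 FPKM at 5 days, 16.7 in wild type at 12 days, and 5.72 and 7.86 in lines a and b. It was highest in 12-day wild type. The log2 ratio of 12-day over 5-day wild type was 3.37 ± 0.88 (implied standard error, Cuffdiff q 0.000253), and that of line a over 12-day wild type was -1.54 ± 0.40 and of line b -1.09 ± 0.35 (Cuffdiff q 0.000253 for both). Of the 5 HKT loci placed, 2 were tested. The other, HKT2;1, lay between 3.64 and 5.95 FPKM in the 4 groups and was called higher in 12-day than in 5-day wild type (Cuffdiff q 0.0485) and in neither line.

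HAK17 (Os09g0448200, chromosome 9, 16754534 to 16759622), of the potassium transporter family, showed the other order. It had 2.01 FPKM at 5 days, 6.35 in wild type at 12 days, and 15.4 and 11.3 in lines a and b. The lines stood 1.27 ± 0.31 and 0.84 ± 0.33 above 12-day wild type on the log2 scale (implied standard errors, Cuffdiff q 0.000253 for both). HAK1 of the same family had 1.30 and 1.43 FPKM in 5-day and 12-day wild type and 33.1 and 36.5 FPKM in lines a and b, so it was not a member. MHX1 (Os11g0660000, chromosome 11, 26488390 to 26492363), whose Arabidopsis relative exchanges magnesium and zinc for protons at the vacuole, had 6.52 FPKM at 5 days, 41.3 in wild type at 12 days, and 24.9 and 25.6 in lines a and b. Like HKT1;1 it was highest in 12-day wild type.

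Among signalling genes, 2 calcium-linked kinases were members. CIPK5 (Os01g0206700, chromosome 1, 5809140 to 5811560) had 5.53 FPKM at 5 days, 40.7 in wild type at 12 days, and 32.1 and 37.0 in lines a and b. CIPK16 (Os09g0418000, chromosome 9, 15009181 to 15010837) had 3.55 FPKM at 5 days, 11.9 in wild type at 12 days, and 20.1 and 24.8 in lines a and b. The first was highest in 12-day wild type and the second in the lines. Against 12-day wild type CIPK5 was called lower in line a (Cuffdiff q 0.0277) and not called in line b (Cuffdiff q 0.438). CIPK proteins are kinases bound and activated by calcineurin B-like calcium sensors. Of 21 CIPK loci placed, 17 were tested in each age comparison. Between 12-day and 5-day wild type 6 were called higher and 2 lower, and in each line 10 were called higher and 1 lower, both members being among the higher ones each time. Over all loci tested the shares called higher were 14.8% in wild type and 24.7% and 25.6% in the lines, and the family counts include the members the rule chose. CIPK29, at 23.3, 34.1, 70.1 and 76.5 FPKM in 5-day wild type, 12-day wild type, line a and line b, was called higher in all 3 and stayed under 3-fold in 12-day wild type.

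CRSH2 (Os05g0161500, chromosome 5, 3626393 to 3629088) encodes a calcium-activated chloroplast enzyme of the RelA/SpoT family, which makes the alarmone ppGpp. It had 18.0 FPKM at 5 days, 119 in wild type at 12 days, and 74.7 and 83.2 in lines a and b. Its log2 ratio of 12-day over 5-day wild type was 2.72 ± 0.24 (implied standard error, Cuffdiff q 0.000253). CRSH1, the relative that lies near it on the chromosome, had 28.4, 39.5, 19.4 and 19.8 FPKM in the same order of groups, so in the lines CRSH1 stood lower than at 5 days (Cuffdiff q 0.00591 and 0.0118) and CRSH2 higher. The start of the CRSH1 locus lay 46.5 kb from where its 3 nearest genes place that symbol. Whether its value holds reads from outside that gene was not tested.

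HOX22 (Os04g0541700, chromosome 4, 27124165 to 27125512), a homeodomain-leucine zipper transcription factor, had 1.55 FPKM at 5 days, 26.5 in wild type at 12 days, and 102 and 76.4 in lines a and b. It was higher in every 12-day group by at least 17.1-fold. The lines stood 1.95 ± 0.26 and 1.53 ± 0.27 above 12-day wild type on the log2 scale (implied standard errors, Cuffdiff q 0.000253 for both). Line a also stood above line b, with a log2 ratio of line b over line a of -0.42 ± 0.23 (implied standard error) and a Cuffdiff q of 0.00525.

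The remaining members with a symbol act in the wall, the plastid and redox control. BC1L9 (Os10g0497700), a COBRA-like protein of the family that BRITTLE CULM1 belongs to, known for its part in the cellulose wall, had 3.93 FPKM at 5 days, 13.5 in wild type at 12 days, and 43.3 and 45.2 in lines a and b. BC1 itself had 34.1, 29.0, 34.5 and 29.1 FPKM in the same order, with no call in the 3 age comparisons. Of 5 loci of that family placed, 4 were tested in 12-day wild type and in line a against 5 days, and 5 in line b. BC1L9, which the rule chose for its ratio, was the 1 called higher each time. Over all loci tested, 14.8%, 24.7% and 25.6% were called higher in 12-day wild type, line a and line b. In line a 1 locus of the family was called lower, where 26.2% of all loci tested were. PPT3 (Os01g0172100), a phosphoenolpyruvate/phosphate translocator of the plastid envelope, had 4.002 FPKM at 5 days, 13.6 in wild type at 12 days, and 22.0 and 20.8 in lines a and b. GRXC7 (Os05g0198200), a glutaredoxin, had 5.95 FPKM at 5 days, 20.2 in wild type at 12 days, and 34.5 and 33.6 in lines a and b. BC1L9, PPT3 and GRXC7 were all higher in the lines than in 12-day wild type. The 12 symbols are those that could be placed, so no share of functions is read from them, and the other 101 members are known here by locus identifier alone.

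**Figure D3:**
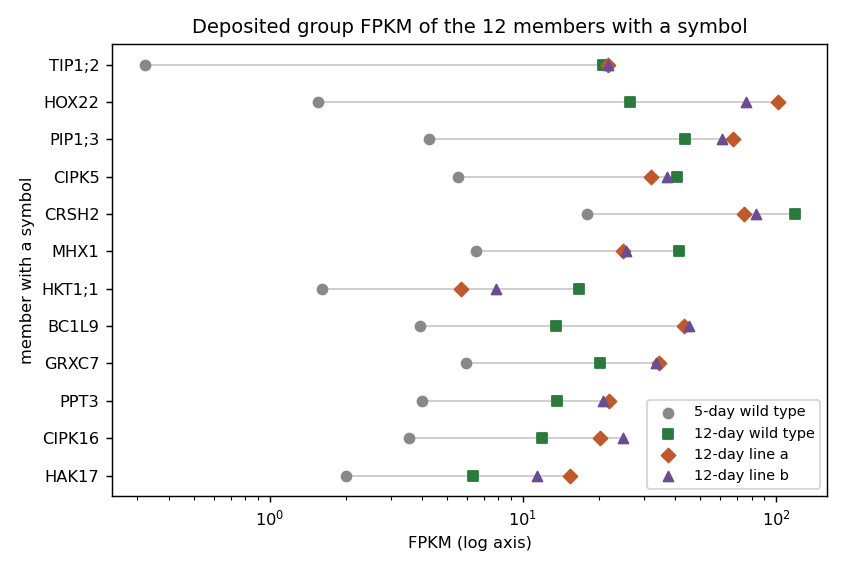
Deposited FPKM of the 12 members with a symbol in the 4 groups on a log axis, ordered by the ratio of the lowest 12-day value over 5-day wild type. TIP1;2 shows the widest step, from 0.321 to 20.7 FPKM or more, and HKT1;1, MHX1, CRSH2 and CIPK5 are highest in 12-day wild type. For CIPK5 line b was not called against 12-day wild type.

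In every 12-day group 7 members were over 100 FPKM and 16 over 50 FPKM, and the median span of these 16 was 1315 bases. Most of them have no symbol. Os12g0515800 (chromosome 12, 20042292 to 20043043) had 32.2 FPKM at 5 days, 1035 in wild type at 12 days, and 329 and 457 in lines a and b. Os01g0963600 (chromosome 1, 42460554 to 42461946) had 10.8 FPKM at 5 days, 315 in wild type at 12 days, and 307 and 334 in lines a and b. Os01g0314800 (chromosome 1, 11863681 to 11864412) had 18.3 FPKM at 5 days, 365 in wild type at 12 days, and 289 and 283 in lines a and b. The first was over 2-fold higher in 12-day wild type than in either line, whereas the second stood at nearly the same level in all 3 groups.

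Os01g0963600 was also among the members with the largest ratios, with a log2 ratio of 12-day over 5-day wild type of 4.87 ± 0.36 (implied standard error, Cuffdiff q 0.000253), and its 12-day values lay within 1.09-fold. It was called in neither line against 12-day wild type, with Cuffdiff q of 0.828 for line a and 0.619 for line b. The other abundant members were Os02g0160500, with 64.5 FPKM at 5 days and 236, 380 and 239 FPKM in 12-day wild type, line a and line b, Os07g0605400, Os09g0467200, Os11g0209000, Os04g0244800 and Os02g0533800. Os11g0209000, with 15.8, 183, 103 and 117 FPKM, was highest in 12-day wild type. Os09g0467200, with 29.2, 110, 302 and 259 FPKM, was highest in the lines.

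At the other end were members nearly absent at 5 days. Os04g0630400 (chromosome 4, 32063581 to 32065823) was listed at 0 in 5-day wild type and had 8.20 FPKM in wild type at 12 days, and 8.40 and 8.71 in lines a and b. Os07g0167500 (chromosome 7, 3618231 to 3630819) was listed at 0 and had 7.79, 14.4 and 16.8 FPKM. Both were called in all 3 age comparisons with a Cuffdiff q of 0.000253, and no fold against a value of 0 is given. Os08g0351300 had 0.186 FPKM at 5 days and 13.6, 8.13 and 10.7 FPKM in 12-day wild type, line a and line b. Os06g0651200 had 0.473 FPKM at 5 days and 20.03, 22.4 and 17.9 FPKM in the same groups. Neither was called, with Cuffdiff q of 0.386 and 0.292 and implied errors of 4.67 and 2.77 on log2 ratios of 6.19 and 5.40 between 12-day and 5-day wild type.

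Os01g0123900 went from 1.53 FPKM at 5 days to 41.8, 58.8 and 52.6 FPKM, and Os02g0206700 from 1.35 FPKM to 29.1, 38.7 and 37.3 FPKM, in 12-day wild type, line a and line b. The log2 ratio of 12-day over 5-day wild type was 4.77 ± 1.16 for the first (Cuffdiff q 0.00902) and 4.43 ± 0.78 for the second (Cuffdiff q 0.000253), with implied standard errors. Os01g0342500 had 0.410 FPKM at 5 days and 6.35, 9.52 and 8.96 FPKM, and was not called (log2 ratio of 12-day over 5-day wild type 3.95 ± 2.94, implied standard error, Cuffdiff q 0.292).

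The size of the ratio and the call thus parted in some members with low 5-day values, but not in all of them. The 2 members at 0, Os12g0569500 (0.543 FPKM at 5 days) and Os03g0287100 (0.970 FPKM) were called in all 3 age comparisons. The 19 members called in no age comparison had a median 5-day value of 1.29 FPKM, and the 89 called in all 3 had a median of 3.31 FPKM. The median implied error over members between 12-day and 5-day wild type was 0.71 on the log2 scale, beside 0.33 over all 17221 loci with such an error. In line a and line b against 5-day wild type it was 0.69 and 0.68, beside 0.35 and 0.35. Between line a and 12-day wild type, where no value is low, the members' median error was 0.34 beside 0.35. Some of the 19, picked out after their values were seen, were not low at 5 days. Os06g0115300 had 20.9 FPKM at 5 days and 123, 76.1 and 71.5 FPKM in 12-day wild type, line a and line b. Os01g0221400 (4.89 FPKM at 5 days) and PIP1;3 (4.27 FPKM) also lay above the median of the members called in all 3.

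**Figure D4:**
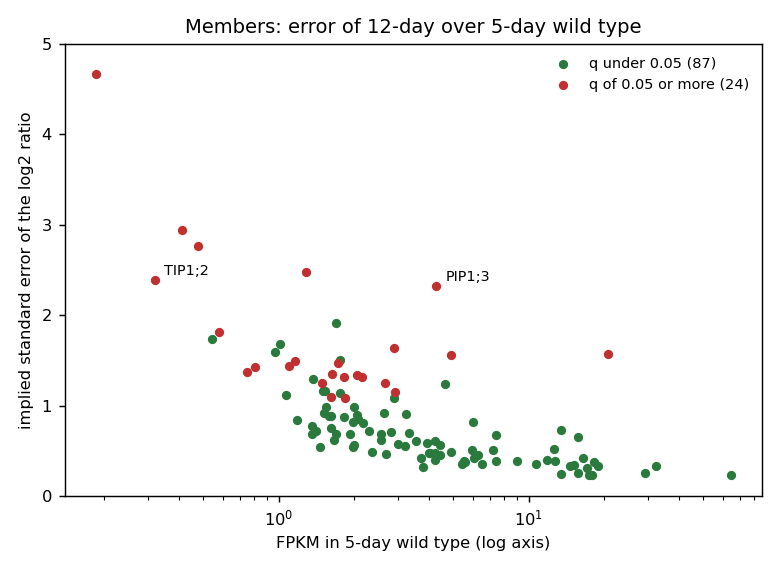
Implied standard error of the log2 ratio of 12-day over 5-day wild type (linear axis) against the FPKM in 5-day wild type (log axis), for the 111 members above 0 at 5 days. Points are coloured by the deposited q, and the 24 not under 0.05 lie mostly at low 5-day values, TIP1;2 at 0.321 FPKM among them.

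Within the 12-day plants the members were seldom at 1 level. Their highest 12-day value was a median 1.67 times the lowest, and 38 members (33.6%) kept within 1.5-fold, where 60.0% of all 13443 expressed loci did. In 37 members the values lay over 2-fold apart, with 12-day wild type lowest in 30 and highest in 7. In all, 12-day wild type was lowest in 75 members (66.4%), highest in 27 (23.9%) and between the lines in 11 (9.73%). Over the 13443 expressed loci the shares were 42.7%, 47.1% and 10.2%. Since the rule set the 12-day values against 5 days and limited their spread, these shares are descriptions. The lines themselves lay within 1.5-fold of each other in 108 of 113 members (95.6%), beside 98.1% of the expressed loci.

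The members with the smallest 12-day spread were TIP1;2, Os04g0630400, Os10g0466800, Os05g0195700 and Os01g0963600. Os05g0195700 had 2.07 FPKM at 5 days and 10.1, 10.1 and 10.9 FPKM in 12-day wild type, line a and line b. Os10g0466800 had 1.49 FPKM at 5 days and 5.42, 5.35 and 5.02 FPKM. Their 12-day values differed by less than 1.1-fold.

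The authors' deposited table calls 66 members in line a against 12-day wild type, 50 higher and 16 lower, where 44.8% of all loci tested were called. It calls 63 in line b, 48 higher and 15 lower, where 46.3% were called. The shares called higher over all loci tested were 21.3% and 22.2%, and lower 23.5% and 24.2%. The median ratio of a line over 12-day wild type was 1.37 in both lines. Both lines were called higher in 42 members and lower in 13, neither line in 39 and a single line in 19, and no member was called in opposite directions. No share over all loci is given for these joint counts, so nothing is read from them. With a minimum of 2-fold as well, 30 members in line a and 29 in line b were called, where 20.8% and 21.9% of all loci tested were. A normal test on the implied errors called 39 and 31, for which no share over all loci is given. These comparisons share the 12-day wild-type control, and the limit of 4-fold used them.

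The members furthest above 12-day wild type in both lines were Os01g0159800, Os01g0933200, Os03g0218400, HOX22 and Os10g0532300. Os01g0159800 had 1.59 FPKM at 5 days, 12.4 in wild type at 12 days, and 49.4 and 49.5 in lines a and b. Os03g0218400 had 1.18 FPKM at 5 days, 17.2 in wild type at 12 days, and 53.2 and 64.6 in lines a and b. Os01g0933200 had 4.43 FPKM at 5 days, 20.9 in wild type at 12 days, and 69.6 and 74.1 in lines a and b. In each the lines stood above 12-day wild type, which itself stood above 5-day wild type as the rule requires.

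Furthest below were Os06g0318600, Os03g0574900, Os12g0515800, HKT1;1 and Os11g0549900. Os06g0318600 (chromosome 6, 12345870 to 12350134) had 2.69 FPKM at 5 days, 54.3 in wild type at 12 days, and 16.5 and 14.9 in lines a and b. Os03g0574900 (chromosome 3, 20978619 to 20985759) had 1.46 FPKM at 5 days, 24.9 in wild type at 12 days, and 6.81 and 7.99 in lines a and b. Os11g0549900 had 12.7 FPKM at 5 days, 108 in wild type at 12 days, and 50.01 and 47.4 in lines a and b. For Os06g0318600 the lines stood -1.72 ± 0.24 and -1.86 ± 0.24 from 12-day wild type on the log2 scale (implied standard errors, Cuffdiff q 0.000253 for both). All of these were over 3-fold higher in each line than at 5 days, as the rule requires of every member.

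**Figure D5:**
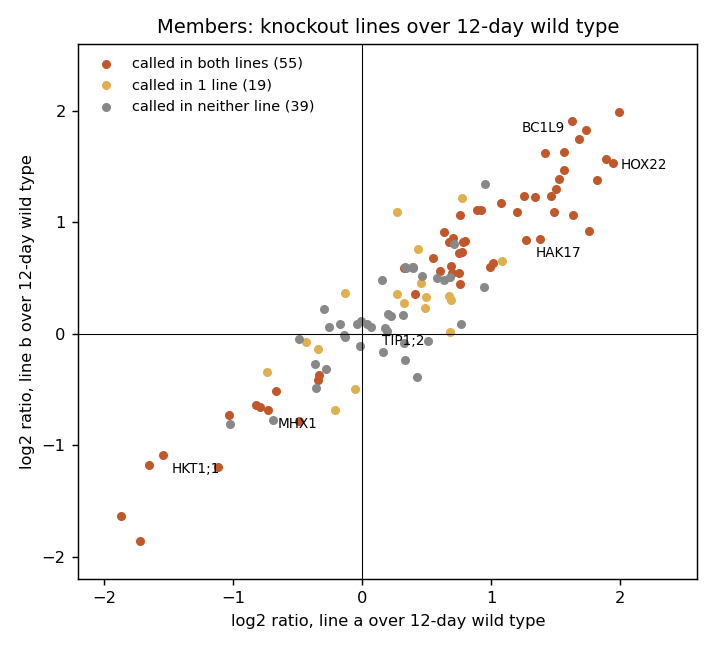
Log2 ratio of line a (horizontal) and line b (vertical) over 12-day wild type for the 113 members, coloured by the deposited call. Most points lie above 0 on both axes, and no member is called higher in 1 line and lower in the other. No share over all loci is given for such joint calls.

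Between the lines 16 members were called, 4 higher and 12 lower in line b, where 5.0% of all loci tested were called, 2.47% higher and 2.52% lower. At q under 0.01 there were 8, and a normal test on the implied errors called 2. The furthest apart were Os02g0533800, with 258 FPKM in line a and 145 in line b, and Os12g0569500, with a log2 ratio of line b over line a of 0.82 (Cuffdiff q 0.0150). No member differed by 2-fold between the lines, the largest fold being 1.78, where 0.828% of all loci tested were called with at least 2-fold. At an unadjusted Cuffdiff p under 0.05, 24 members differed. The shares over all loci at this limit, at q under 0.01 and on the implied errors are not given here. Nothing is therefore read from those counts.

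The members were spread over the 12 chromosomes. They made up 0.675% of the 16737 single-gene loci at 5 FPKM or more in any group, from 0.454% on chromosome 2 to 0.888% on chromosome 1, where 21 lay. No run of 3 neighbouring members was found, counting members with at most 2 other single-gene loci between them, and 3 pairs were. Os07g0167500 and Os07g0167700 lay next to each other, 3159 bases apart, with 0 and 0.575 FPKM at 5 days. Os07g0605350 and Os07g0605400 were adjacent, 2223 bases apart, with 1.69 and 16.6 FPKM at 5 days and 15.8 and 116 FPKM in 12-day wild type. Os04g0639000 and Os04g0639200 flanked Os04g0639100, which had 50.2 FPKM at 5 days and 83.3 in 12-day wild type and was not a member. Reads of adjacent loci could not be separated by strand, as the strand setting is not given in the sources used here.

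The members' loci were short. Their median span was 2079 bases, beside 4146 bases over the 13443 loci at 5 FPKM or more in each 12-day group, and 24 members (21.2%) spanned under 1000 bases, beside 5.27%. The 1122 loci gained in both lines and not in 12-day wild type had a median span of 2466 bases, the 234 gained in 12-day wild type alone 2875 bases, and the 60 with the opposite pattern 1543 bases. A short span was thus a feature of the other sets chosen by a large ratio as well. Those sets had no limit on the spread of the 12-day values. At the other end 4 members, PIP1;3, Os03g0760200, Os09g0460400 and Os12g0559200, had merged spans over 50000 bases.

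None of the 108 loci in 15 gene lists for processes of this seedling stage was a member, which is no result at this size, as members made up 0.675% of expressed single-gene loci and 3 of the 108 lie in merged loci that were not eligible. The lists cover SPL phase-change factors, flowering, phosphate, ion and sugar transport, secondary wall, senescence, strigolactone and tillering, brassinosteroid, cytokinin and abscisic acid, beside the cell type markers. Among the 13 SPL loci tested, 5 were called higher and none lower in 12-day than in 5-day wild type, where 14.8% of all loci tested were called higher and 13.5% lower. In line a 4 of 11 were called higher and 1 lower, and in line b 3 of 11 higher and 2 lower. Those called higher in 12-day wild type were SPL3, SPL4, SPL11, SPL12 and SPL13. In the lines they were SPL2, SPL6 and SPL15, with SPL9 in line a as well, so wild type shared none with the lines. Over all loci tested, 24.7% and 25.6% were called higher in lines a and b than at 5 days, and 26.2% and 26.6% lower. Of 4 flowering loci tested in each age comparison, 3 were called higher, beside the same shares over all loci, though not the same 3 each time. These were MADS50, MADS18 and GI in 12-day wild type, and HD1, MADS51 and GI in each line. GI, a clock gene, had 2.36, 5.25, 6.10 and 6.88 FPKM in 5-day wild type, 12-day wild type, line a and line b. All 6 cytokinin response regulators tested were called lower in each line than at 5 days, where 26.2% and 26.6% of all loci tested were. RR9 among these had its symbol elsewhere in RefSeq. In 12-day wild type RR2 was called higher and RR6 and RR10 lower.

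The class I KNOX genes, which mark the shoot meristem and stem, had low values in the same order as the members' medians at 5 days, in 12-day wild type and in the lines. Their summed level over 3 genes was 0.105 FPKM in 5-day wild type, where OSH1 and OSH15 were at 0, 7.06 in wild type at 12 days, and 15.9 and 14.1 in lines a and b. None of the 3 was tested between 12-day and 5-day wild type. In each line OSH1 and OSH15 were called higher than at 5 days and OSH6 was not (Cuffdiff q 0.281). None was a member, as none reached 5 FPKM in 12-day wild type. Their part in the members' values was not tested.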

How the data were processed

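Transcripts of whole aerial parts of rice were sequenced in 12 samples, 3 per group. Per the submitters' processing notes, Trimmomatic, FastQC, HISAT2, Cufflinks and Cuffdiff were used on build IRGSP-1.0; versions, options and strand setting are not given in the sources used here. Growth was at 27 °C with a 12 h photoperiod on 0.4% agar, per the labels' protocols.

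The authors' deposited FPKM were used, 1 per group, and how libraries were scaled is not given. Fold changes were deposited as log2 ratios of these FPKM. The Cuffdiff statistic in the deposited table is a score, equal to that ratio divided by its standard error. Each p-value and q-value in the deposited table is linked by Benjamini-Hochberg adjustment over 108602 tests of 6 comparisons. The normal deviate of the deposited p was a median 1.75 times the statistic, so calls by q are mostly more liberal than the implied errors. For some members low at 5 days the deviate was smaller than the statistic instead. TIP1;2 was one, at 6.01 ± 2.39 between 12-day and 5-day wild type with a Cuffdiff p of 0.198. In line a against 5-day wild type the implied errors called 81 members, 78 of them among the 93 called by q. The smallest deposited p was 5e-05, which gives a q of 0.000253.

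Members and gene lists were chosen with earlier results of these data known. Named genes were the 10 largest ratios, the 10 most abundant, those at 0 at 5 days, the 5 with the smallest 12-day spread, the 5 highest and 5 lowest in the lines over 12-day wild type, the 3 on either side of the 3-fold limit, and members in lists or runs. Symbols for 12 members, and the families shown beside them, were added after the values had been seen. The table names no genes, so a symbol was kept where RefSeq (ASM3414082v1) has it on the same chromosome, within 150 kb of the place given by the 3 nearest genes: all 12 member symbols, 55 of 62 family symbols and 80 of 108 list loci, the other list loci being kept, 25 with no such symbol on the chromosome in RefSeq and 3 (SWEET13, SUT2 and RR9) with the symbol farther away. No symbol is given for the rest. Calculations used Python 3.11.15, pandas 2.3.3, numpy 2.4.6 and scipy 1.17.1, figures matplotlib 3.10.9, and the steps were tested on simulated data.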

Additional observations from a re-analysis of the deposited data

Results flagged for a closer look

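The deposited test between the knockout lines called 16 members, each a difference between 2 lines with OsC3'H1 knocked out. The log2 ratio of line b over line a was -0.83 for Os02g0533800, -0.67 for Os02g0160500, -0.53 for Os12g0226700, -0.45 for Os07g0413800, -0.44 for HAK17 (Os09g0448200), -0.42 for HOX22 (Os04g0541700), -0.41 for Os04g0300600, -0.40 for Os07g0642200, -0.39 for Os07g0605400, -0.39 for Os01g0965900, -0.33 for Os10g0532300 and -0.32 for Os05g0322900. It was 0.36 for Os02g0580900, 0.47 for Os12g0515800, 0.50 for Os03g0726500 and 0.82 for Os12g0569500. At an unadjusted Cuffdiff p under 0.05 there were 24 such members, with no share over all loci given at that limit.

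Outside the loci with 1 annotated gene, 5 merged loci with several identifiers and 2 with none met the same limits. The merged locus of Os01g0910800 and Os01g0910900 had 24.5 FPKM at 5 days and 1098, 584 and 564 FPKM in 12-day wild type, line a and line b, above every member at 12 days.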

How the results depend on the processing

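The 113 members became 74 with a lowest 12-day value of 10 FPKM, 307 at 2-fold, 47 at 5-fold and 824 with no filter on low values. They became 156 with 3 FPKM, 76 with 12-day values within 2-fold, 151 with no limit on that spread, 120 with merged loci and 83 with a pseudocount of 1 FPKM (82 shared). Rescaling each group to its median ratio gave 114, all 113 among them. Counts called against 5 days stayed within 1.5-fold of the deposited ones under q under 0.01, a test on the implied error and a 2-fold minimum. Against 12-day wild type, the test on the implied error called 39 members in line a and 31 in line b, and a 2-fold minimum left 30 and 29. Between the lines q under 0.01 left 8 members and the implied error 2. The Cuffdiff q with a 2-fold minimum left 0, beside 16 by q alone and 24 at an unadjusted p under 0.05, none of these 2-fold apart. No share over all loci is given for q under 0.01, the implied errors or the unadjusted p. No paired analysis was possible because the table holds 1 value per group and its columns carry no replicate numbers, and for the same reason no replicate could be left out. Depth is unknown, so what a value of 0 allows cannot be stated.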
